A study of Homo sapiens with 12 samples.

Results

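Regions of the genome that came down with lacZ probes alone were taken from ChIRP-seq, the sequencing of chromatin isolated by RNA purification, in the established human line Jurkat, which derives from a T-cell leukaemia. Peaks of 9 libraries on chromosomes 1 to 22 and X were merged where they overlapped by at least 1 base. A region was kept if all 3 lacZ lists had a peak in it and none of the 6 odd and even lists did. This left 21146 of 357901 merged regions, 5.91% of all. The values that chose them were the presence or absence of peaks in these same 9 lists, so their number, height and width are descriptions and carry no test.

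The libraries formed 3 groups of 3, captured with lacZ probes, with odd probes and with even probes, and all came from Jurkat cells with stable expression of SLEAR, a long non-coding RNA at which the odd and even probes are aimed. By the labels, cells and growth were alike and the groups differed in the probes. How the SLEAR level of this line compares with that of T cells is not stated. The 3 input libraries were not analysed here, and nothing in the labels says that replicates came from separate cultures.

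In ChIRP, chromatin is crosslinked, broken up and pulled down with short biotinylated oligonucleotides complementary to an RNA, and the DNA held by that RNA is read. Probes against lacZ, the messenger RNA of bacterial beta-galactosidase, have no RNA to pair with in human cells. DNA that they bring down stands for capture without the target, and such a control is used to mark regions that the assay yields whatever RNA is sought. The regions kept here had by rule no odd or even peak, so they are not regions found with every probe set. The lists follow the genome build hg19, for which neither a sequence nor a gene annotation was used here, so regions are named by position and no gene or sequence is given for them.

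Most of what the lacZ lists had in common was absent from the odd and even lists. Of 23998 regions with a peak in all 3 lacZ lists, 21146 (88.1%) had none in an odd or even list, 789 had a peak in 1 of the 6 lists and 2063 in more than 1. The matching share for regions in all 3 odd or all 3 even lists is not given here. Whether 88.1% is high or low for a probe set therefore cannot be said. Regions chosen in the same way for the other probes were more numerous, with 51989 found with odd probes alone (14.5% of merged regions) and 61807 with even probes alone (17.3%). Of the lacZ lists, replicate 1 held 46560 peaks on these chromosomes, replicate 2 held 90804 and replicate 3 held 26460. The 6 odd and even lists held 66336 to 124191, so replicates 1 and 3 were shorter than any of them, while replicate 2 was longer than odd replicate 1 and even replicate 2. Peaks in the regions alone in lacZ made up 45.5% of replicate 1, 23.3% of replicate 2 and 80.1% of replicate 3. Replicate 3 limited their number, since 38954 regions met the rule without it.

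Regions that just missed the rule fell into 2 kinds. The regions kept had a median pileup percentile within the list of 73.2, 86.3 and 53.0 in lacZ replicates 1, 2 and 3, against 76.8, 87.8 and 57.8 in the 789 regions lost through a single odd or even peak. Their median width was 684 bases, against 808 in those 789. Width spans every peak merged into a region, so an odd or even peak can add to it and a missing lacZ peak can take from it. The 19525 regions that were lost because 1 lacZ list had no peak were low, with median percentiles of 31.1, 58.1 and 10.2, and narrow, with a median of 449 bases. Only 1732 of them had a peak in replicate 3, the shortest list.

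The pileup is the number of fragments stacked at the summit of a peak, as the authors deposited it, and it was not scaled to depth. In the regions alone in lacZ its median was 41 fragments in lacZ replicate 1, 90 in replicate 2 and 23 in replicate 3, a mean of 51.3 ± 34.7 (SD, n = 3). All other peaks of the same lists had medians of 17, 19 and 15 fragments. The 5th to 95th percentiles of the regions ran from 15 to 151 fragments in replicate 1, from 28 to 368 in replicate 2 and from 10 to 78 in replicate 3. The 2 classes of peaks thus overlapped in each list, most of all in replicate 3. Of the highest 10% of peaks by pileup, 85.6%, 85.9% and 85.3% lay in these regions in replicates 1, 2 and 3, against 45.5%, 23.3% and 80.1% of all peaks of these lists. Of the lowest 10% it was 5.07%, 0.138% and 45.9%. Sets chosen in the same way also stood high in their own lists. Regions alone in odd had median pileups of 28 to 56 fragments, against 13 to 21 in other peaks. Those alone in even had 35 to 41, against 13 to 18. They held 79.5% to 83.3% and 83.5% to 85.2% of the highest 10% of peaks. Of all peaks of these lists they held 44.5% to 78.5% and 49.9% to 68.8%.

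**Figure D1:**
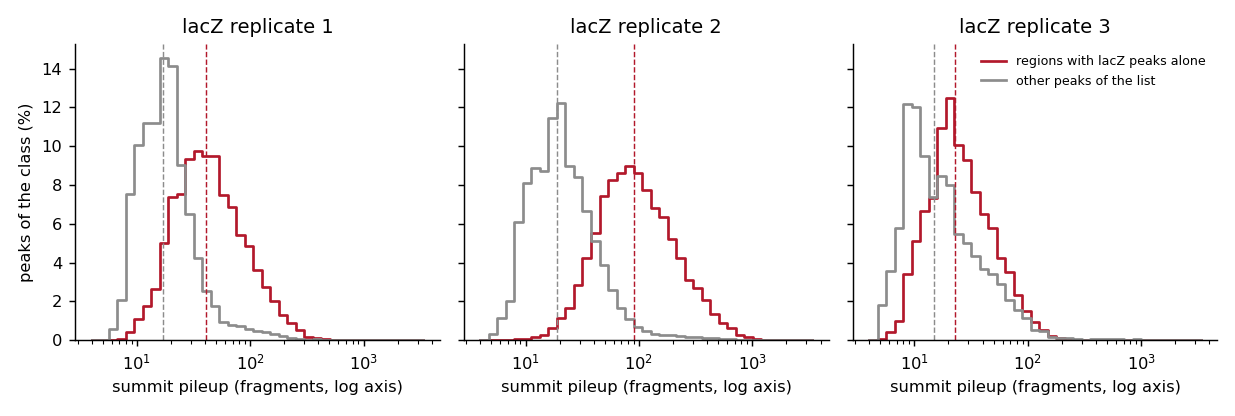
Summit pileup (fragments, log axis) of peaks in the regions found with lacZ alone (red) and of all other peaks of the same lacZ list (grey), as percent of each class, with dashed lines at the medians. The red medians of 41, 90 and 23 fragments stand to the right of the grey ones of 17, 19 and 15 in replicates 1, 2 and 3, and the classes overlap most in replicate 3.

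The order of heights recurred from list to list. Over the 21146 regions, the Spearman correlation of pileup was 0.93 between replicates 1 and 2, 0.89 between 1 and 3 and 0.88 between 2 and 3. Regions are not independent and share mappability, copy number and width, so these are descriptions. The same values lay between 0.88 and 0.90 in the regions alone in odd and in those alone in even. Scale differed between libraries, since pileup in replicate 2 was a median 2.21 times that in replicate 1, with 5th and 95th percentiles of 1.36 and 3.26 over the regions. Replicate 3 stood at 0.568 times replicate 1.

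Recurrence was also looked at with each lacZ list in turn left out of the choice, though its peaks were still among those merged into regions. Regions were picked from 2 lacZ lists and the absence of odd and even peaks, and the third lacZ list was then read. A peak was there in 92.6% of 22825 regions when replicate 1 was the one left out, in 99.7% of 21199 when it was replicate 2, and in 54.3% of 38939 when it was replicate 3. With replicate 1, 2 or 3 taken out before the merge, the same choice gave 22860, 21419 and 38954 regions. The mean share was 82.2% ± 24.4 (SD, n = 3), against 86.1% ± 16.3 for odd and 88.8% ± 5.93 for even probes. Within a set, the regions with a peak are the same each time, 21146 for lacZ. The 3 shares are therefore not independent, and they describe the same presence values that the rule used. The low value came with the shortest lacZ list. For odd probes the lowest value, 67.4%, likewise came with the shortest odd list, replicate 1.

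Regions that stood higher in the lists used for the choice came back more often. With replicate 3 left out, 99.9% of the highest 10% by pileup percentile had a peak in it, against 7.37% of the lowest 10%. With replicate 1 left out these shares were 100% and 52.5%, and with replicate 2 left out 99.9% and 98.0%.

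**Figure D2:**
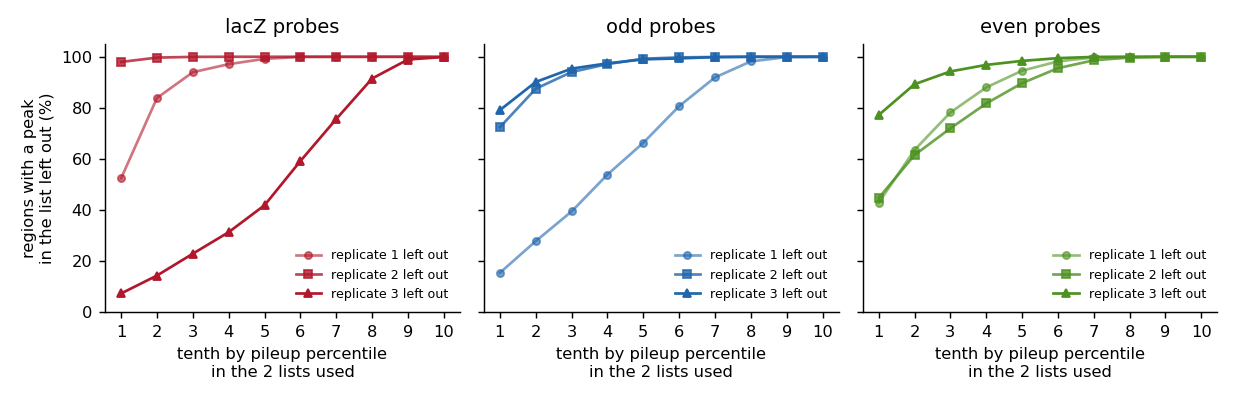
Percent of regions with a peak in the list that was left out (vertical axis), in 10 equal classes of mean pileup percentile in the 2 lists that chose them (horizontal axis, lowest at 1), for lacZ, odd and even probes, with 1 line for each list left out. With lacZ replicate 3 left out the line climbs from 7.37% to 99.9%, while with replicate 2 left out it starts at 98.0%.

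The regions alone in lacZ were single, compact peaks. Their median width was 684 bases, with quartiles of 581 and 788 and 1st and 99th percentiles of 335 and 1209 bases. Together they covered 14.6 Mb. Only 85 held more than 1 peak of the same lacZ list. The lists themselves gave median peak lengths of 578, 664 and 467 bases in replicates 1, 2 and 3, against 330, 314 and 367 bases in their other peaks. Regions alone in odd and in even had medians of 583 and 590 bases and came from lists of other lengths, so the widths are given side by side and were not tested. The class below 400 bases held 3.74% of the lacZ regions, and 2.79% were 1000 bases or wider.

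Summits of the 3 lacZ libraries fell close together within a region. The distance between the outermost of the 3 had a median of 46 bases, was at most 86 bases in 90% of regions and stayed within 100 bases in 94.7%. The medians for regions alone in odd and in even were 43 bases each. Between single lacZ lists the median distance was 25 to 29 bases.

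Width grew with height, and summits closed in. Between the lowest and the highest 10% of regions by mean pileup percentile, the median width ran from 503 to 881 bases and the median summit spread from 60 to 39 bases. Across regions the Spearman correlation of width with mean pileup percentile was 0.76. Height and called length are tied in peak calling, and the part of this in the relation was not tested.

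**Figure D3:**
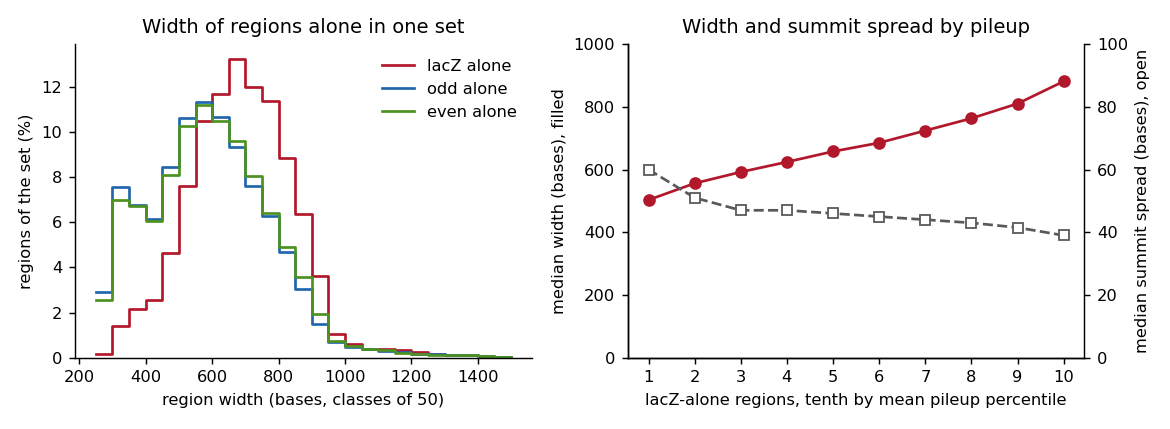
Left, width of regions alone in lacZ, odd or even (bases, classes of 50; percent of the set; wider than 1550 bases not drawn). Right, the lacZ regions in 10 equal classes of mean pileup percentile, with median width (filled, left axis) and the median distance between the outermost lacZ summits (open, right axis). Width runs from 503 to 881 bases while the summit spread runs from 60 to 39 bases.

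The 10 regions with the highest mean percentile of pileup lay on 6 chromosomes, and 3 of them on chromosome 21. The first, on chromosome 6 from 58776294 to 58776721, had a pileup of 2368, 2551 and 1756 fragments in lacZ replicates 1, 2 and 3. Its fold enrichment, the authors' ratio of a peak over its background, was only 3.0, 4.21 and 3.53, so the background was high there too, and it was not chosen from peaks at or above the median fold of their list or from lists held to the same length by fold. It ended 1.58 kb before the longest stretch of that chromosome without any region, 3.11 Mb long, and the nearest region with an odd or even peak lay 965 bases away.

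The second, on chromosome 16 from 33958365 to 33959313, had 1566, 3078 and 683 fragments and a fold of 139, 304 and 157. The third, on chromosome 21 from 11063540 to 11064494, had 584, 1339 and 267 fragments. They lay 1325 kb and 117 kb from the longest empty stretch of their chromosomes. Of the 10 regions, these 3 were within 2 Mb of an empty stretch of over 1 Mb. As background, hg19 has the unsequenced gaps of the centromeres in these places.

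The other strong regions stood farther from such stretches. The fourth, on chromosome 7 from 16640050 to 16641456, had 454, 1072 and 231 fragments in lacZ replicates 1, 2 and 3. On chromosome 14 from 23236658 to 23237627 the pileup was 457, 1172 and 206 fragments, and the 3 summits lay within 2 bases. It lay 259 kb from the longest empty stretch of that chromosome, which was only 0.511 Mb long. On chromosome 10 from 45974192 to 45975343 it was 446, 998 and 219. In each of these replicate 2 was highest and replicate 3 lowest, as over the regions as a whole. The remaining 4 were on chromosome 21 from 35296103 to 35297050 and from 44094761 to 44095712, on chromosome 10 from 129069215 to 129070163 and on chromosome 14 from 70870301 to 70871225. Without the chromosome 6 region, the fold of these strongest regions ran from 124 to 188 in replicate 1, from 304 to 552 in replicate 2 and from 94.8 to 157 in replicate 3. The region from 35296103 lay 71 bases from one with an odd or even peak, so it was kept apart only by the rule for merging.

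Regions nearest the median of mean pileup percentile show what one of usual height looked like. On chromosome 17 from 8987314 to 8987749 the lacZ replicates had 33, 70 and 28 fragments with a fold of 9.53, 26.7 and 15.4. On chromosome 8 from 30811995 to 30812535 they had 36, 72 and 26 fragments, and on chromosome 6 from 118628770 to 118629845 they had 39, 109 and 22. In this order their widths were 436, 541 and 1076 bases, against a median of 684 over all regions alone in lacZ. Each lay outside the quartiles of 581 and 788 bases, so none was usual in width. The one on chromosome 8 lay 109 bases from a region with an odd or even peak. It was not chosen when peaks within 500 bases were merged.

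Some strong regions stood just outside the rule. On chromosome 12 from 122728900 to 122729914 the lacZ lists had 401, 1130 and 186 fragments, but even replicate 1 also had a peak. The same list removed a region on chromosome 19 from 11133207 to 11134166, and odd replicate 3 removed one on chromosome 16 from 22452725 to 22453716. On chromosome 13 from 110076287 to 110076688 replicates 1 and 2 had 610 and 1124 fragments and replicate 3 had no peak. Likewise replicate 3 alone was missing on chromosome 1 from 566160 to 566520, and replicate 2 on chromosome 2 from 92318004 to 92318418.

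The widest regions were not the highest. The widest, 4477 bases on chromosome 10 from 134634144 to 134638620, had 36, 35 and 14 fragments at its summits, in 2 peaks of lacZ replicate 1, 1 of replicate 2 and 4 of replicate 3. It, too, was not chosen from the higher folds or from lists of equal length. The next 3, of 3719, 2919 and 2914 bases, lay beside each other on chromosome 13 between 112939874 and 112951494. The fifth was 2818 bases, on chromosome 6 from 170485014 to 170487831.

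Those on chromosome 13 belonged to the longest run of regions. Runs, defined after the values were seen as regions at most 10 kb apart, held 13.9% of the regions, and 86.1% had no other within 10 kb. Runs also arise in an even random spread, and the number to be had from it was not computed. Of 1400 runs, 1284 were pairs and 14 had at least 4 regions. The longest held 13 regions on chromosome 13 from 112930365 to 112962739, and these covered 71.0% of its 32.4 kb. Their widths ran from 543 to 3719 bases with a median of 1462, and their pileup from 24 to 104 fragments in lacZ replicate 1, from 53 to 195 in replicate 2 and from 16 to 55 in replicate 3. No odd or even list had a peak anywhere in that stretch.

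The other 3 runs of at least 5 regions were neighbours on chromosome 7. They held 7 regions from 61097498 to 61125376, 8 from 61149297 to 61186083 and 5 from 61201849 to 61221871. The first began 41.3 kb after the longest empty stretch of that chromosome. Unlike the chromosome 13 run, these were made of regions of usual width, 597 bases in the median for the run of 8, with gaps of 2325 to 7808 bases between them. The runs of 7 and 5 also spanned 2 and 1 regions with an odd or even peak.

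Apart from such runs, the regions were spread along the chromosomes. Neighbours lay a median 90.1 kb apart, with quartiles of 36.8 and 182 kb and a mean of 139 kb. The closest pair, on chromosome 2 from 176419745 to 176420392 and from 176420586 to 176421209, was 193 bases apart. The most distant pair spanned 21.5 Mb on chromosome 1, between 121183380 and 142642430, where no list had peaks over most of the way. Gaps under 10 kb made up 7.32% of all. Without the libraries numbered 3 there were more regions and the median gap was 46945 bases, and with peaks at or above the median fold of their list it was 155879 bases. Regions alone in odd and in even were more numerous and so closer, with median gaps of 35.4 and 29.8 kb. The median gap divided by the mean gap, which does not depend on number, was 0.649 for lacZ, 0.630 for odd and 0.633 for even.

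Nearly every part of the genome that gave any region gave one with lacZ alone. Of 2888 bins of 1 Mb that held a region of any kind, 28 (0.970%) had no region alone in lacZ, against 3 and 4 without one alone in odd and in even. A bin held a mean of 7.32 and a median of 7, with 2 and 13 as 5th and 95th percentiles. The variance beyond that of an even random spread, as a share of the squared mean, was 0.0547 for lacZ, 0.0785 for odd and 0.0620 for even. These were not tested.

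The 5 fullest bins included the runs described above. On chromosome 13 from 112 to 113 Mb there were 24 regions, of which 13 formed the run. On chromosome 7 from 61 to 62 Mb there were 21. On chromosome 12 from 125 to 126 Mb there were also 24, but spread out, with a median gap of 25.2 kb and only 6 gaps under 10 kb. The others were on chromosome 10 from 13 to 14 Mb with 20 and on chromosome 2 from 101 to 102 Mb with 19. These bins also held 13 to 34 regions alone in odd and 19 to 31 alone in even.

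**Figure D4:**
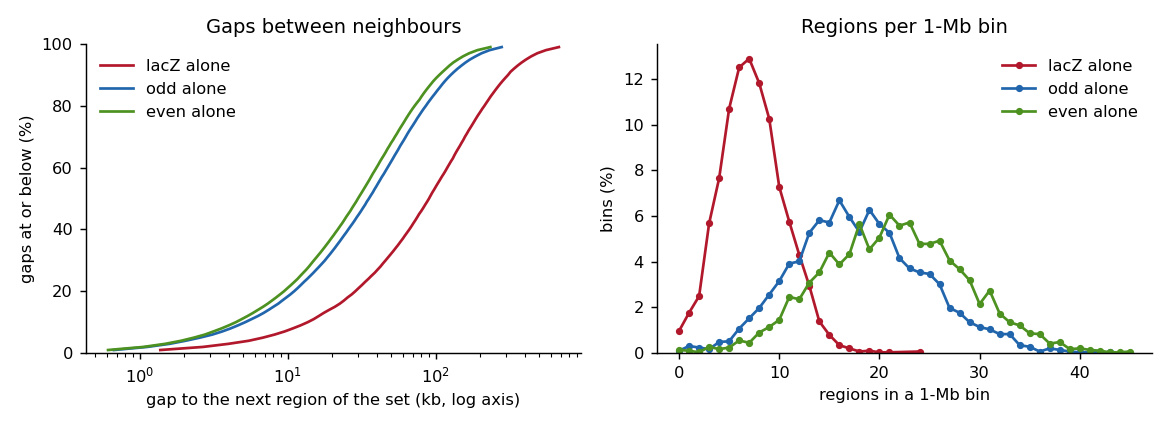
Left, cumulative percent of gaps between neighbouring regions (kb, log axis; 1st to 99th percentile) for regions alone in lacZ, odd or even. Right, percent of the 2888 occupied bins of 1 Mb by the number of regions they hold. The lacZ regions are farther apart, with a median gap of 90.1 kb, and centre on 7 in a bin.

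Density with lacZ followed that with the other probes in part. When bins were put in 5 equal classes by the number of regions alone in odd or even, that number averaged 22.5 in the lowest class and 56.2 in the highest. The lacZ regions in the same bins averaged 5.18 ± 2.89 and 8.47 ± 3.08 (SD over 578 bins each). Across all bins the Spearman correlation was 0.32 between lacZ and odd, 0.31 between lacZ and even and 0.55 between odd and even. Bins share their assembly gaps, mappability and copy number, and lacZ counts are smaller, so their counting noise is larger.

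Within 5 Mb of either end of the covered part of a chromosome there were 7.65 lacZ regions in a bin, against 7.41 in bins away from ends and long gaps. For odd these values were 21.3 and 17.9, and for even 22.9 and 21.5. Within 5 Mb of the longest empty stretch, on the 19 chromosomes where it exceeded 1 Mb, lacZ had 5.90, odd 15.4 and even 18.9. No test was made of these differences.

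A region with odd or even peaks was often near. The median distance from a region alone in lacZ to the nearest region with a peak in any odd or even list was 3.35 kb, and in 10.2% it was under 500 bases. Most of the 357901 merged regions held an odd or even peak, so short distances come with their number. Distances from random positions were not computed. To the nearest region alone in odd it was 18.6 kb and to the nearest alone in even 15.7 kb, while regions alone in odd lay a median 14.7 kb from the nearest alone in even. To another region alone in lacZ the median was 44.9 kb, and it was 44.5 kb from regions alone in odd and 45.0 kb from those alone in even. By this measure, the other probes' regions lay about as near to the lacZ regions as the lacZ regions lay to one another.

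All 23 chromosomes held regions alone in lacZ, from 257 on chromosome 22 to 1901 on chromosome 2. Per occupied Mb the density was highest on chromosome 20, with 8.92, and chromosome 12, with 8.85, and lowest on chromosome X, with 4.23, and chromosome 4, with 5.84. Over the mean of the genome, chromosome 12 stood at 1.21 with lacZ, at 1.05 with odd and at 1.07 with even. Chromosome 22 stood at 0.975 with lacZ, at 1.22 with odd and at 1.27 with even, and chromosome 19 at 0.994, 1.20 and 1.14. Chromosome 20 was high with all 3, at 1.22, 1.33 and 1.27.

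On chromosome X the density was 0.564 times that on the autosomes, and 0.892 times when counted per merged region of any list. Relative to the genome mean it was 0.577 with lacZ, and regions alone in odd and in even were thin there too, at 0.584 and 0.593. Median pileup of the lacZ regions on chromosome X was 35, 78 and 20 fragments in replicates 1, 2 and 3, the lowest of the 23 chromosomes in each list. The background, taken as pileup divided by fold, was also lowest there, with medians of 1.95, 1.78 and 1.53 fragments. The part of copy number or depth in this was not tested. Width did not set chromosome X apart, with a median of 681 bases.

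The share of peaks by chromosome was tested, because the rule did not use it and each list gives its own value. For this, all peaks of each list were counted, in or out of the regions. The log2 share of the 3 lacZ lists was set against that of the 6 odd and even lists. The test was a two-sided exact permutation over the 84 ways to choose 3 of the 9 lists, with Benjamini-Hochberg adjustment over 23 chromosomes. The share differed on 6 of 23 chromosomes (26.1%), each at an adjusted exact permutation p = 0.0456, and it was higher with lacZ on 4 (17.4%) and lower on 2 (8.7%). All 6 had the smallest p that the exact permutation allows, 0.0119. With the other chromosomes as they were, fewer than 6 at that p would not have passed the adjustment. The 6 calls thus stand or fall together, including chromosome 7 with its small difference. With the replicate number as a block none was called, with 12 chromosomes at the smallest adjusted exact permutation p of 0.071. These 12 all had the smallest p that its 27 arrangements allow, 0.037, against 6 at the smallest p without a block. At 0.037, 12 of 23 chromosomes cannot pass the adjustment, so the lack of calls decides little.

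Chromosomes 13, 12, 6 and 7 held more of the lacZ peaks. On chromosome 13 the lacZ lists had 3.79%, 3.64% and 3.76% of their peaks, against 3.37%, 3.27% and 3.34% in the odd and 3.29%, 3.42% and 3.33% in the even lists, a log2 difference of 0.16. On chromosome 12 the lacZ lists had 5.21%, 5.00% and 5.46%, against 4.73% to 4.84% in the 6 probe lists, a difference of 0.13. Chromosomes 6 and 7 differed by 0.09 and 0.04. On all 4, every lacZ list stood above every odd and even list.

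Chromosomes 1 and 11 held fewer. Chromosome 1 had 8.14%, 8.18% and 8.33% of lacZ peaks, against 8.48% to 8.72% in the probe lists, a log2 difference of -0.07. Chromosome 11 had 4.79%, 4.78% and 4.55% against 4.88% to 5.06%, a difference of -0.08. Here every lacZ list stood below every probe list.

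A further 5 chromosomes reached an unadjusted p under 0.05 but not the adjusted one, and 4 of these were lower with lacZ. The largest difference of all was among them, on chromosome 22, with 1.38%, 1.36% and 1.24% in lacZ lists against 1.40% to 1.63%, a log2 difference of -0.20 (exact permutation, adjusted p = 0.0608). Chromosome 19 differed by -0.15 and chromosome 17 by -0.12 (adjusted exact permutation p = 0.0747 each), chromosome 9 by -0.08 and chromosome 3 by 0.07 (adjusted exact permutation p = 0.0608 each). In all, lacZ and probe lists did not overlap on 8 of 23 chromosomes.

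With peaks at or above the median fold of their list, 11 chromosomes were called, 5 of them among the 6, but not chromosome 7, whose log2 difference was 0.0016 (adjusted exact permutation p = 0.929). By covered bases 6 were called, again without chromosome 7, at 0.015 (adjusted exact permutation p = 0.103). With lists held to the same length by fold, the adjusted test called 8 chromosomes, 4 of them among the 6 and also 22, 17 and 9 as lower with lacZ, but chromosome 13 at 0.05 and chromosome 7 at 0.03 were no longer called (adjusted exact permutation p = 0.308 and 0.37). When any 1 list was left out none was called, with 6 to 11 chromosomes at an unadjusted exact permutation p under 0.05 and a smallest adjusted p of 0.0513 (without odd replicate 1) to 0.137 (without lacZ replicate 3). The 6 main calls were all at the smallest exact permutation p allowed, 0.0119. Without an odd or even list that smallest p is 0.0179, and without a lacZ list 0.0357. Calls are then harder to reach whatever the shares, so their loss decides little. Lists of 1 probe set share their probes and many of their peaks, so the test shows that the lists stood apart, and shares that sum to 100% move together.

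**Figure D5:**
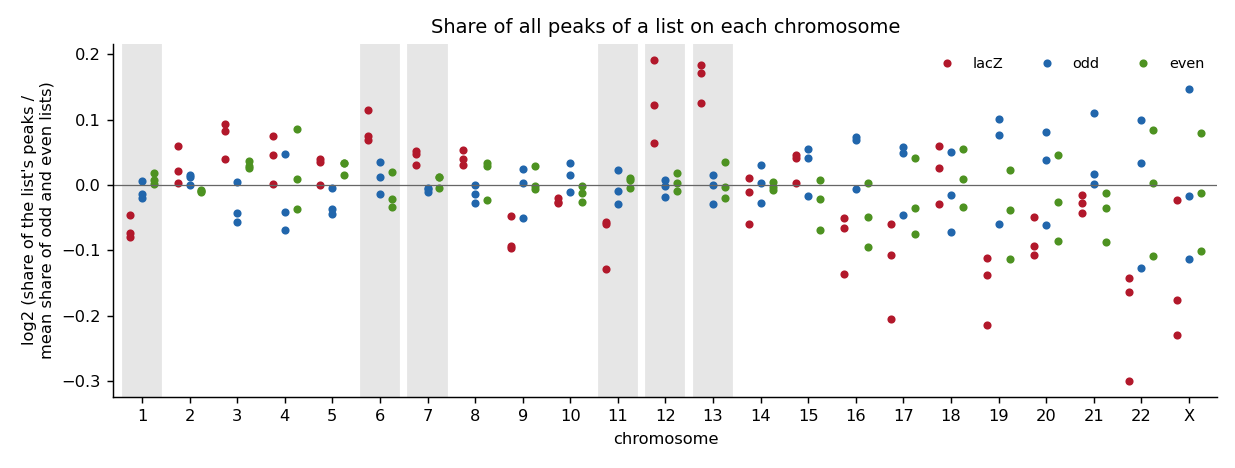
Share of all peaks of a list on each chromosome over the mean share of the 6 odd and even lists (log2), 1 point for each list of lacZ (red, left), odd (blue) and even (green). Grey bands mark the 6 chromosomes with an adjusted p under 0.05; lacZ points lie above the others on 6, 7, 12 and 13 and below them on 1 and 11.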

How the data were processed

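Peak lists of 9 ChIRP-seq libraries, 3 each with lacZ, odd and even probes, were analysed. FastQC, Bowtie2 and the build hg19 are named in the submitters' processing notes, without versions. For the peak caller and its control library, nothing was given in the sources used here. Peaks were called per library, per the file headers and peak names, and positions count from 1. The deposited pileup is a signal, fragment coverage at the summit in whole numbers, not scaled to depth. The deposited fold enrichment is a ratio over a background whose source is not given; it is the authors' value and was used within a list only. The deposited p-value and q-value columns are on a −log10 scale and were not used for calls. Read depth is unknown, so no counting interval is given.

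Peaks were merged with Python 3.11.15 and pandas 2.3.3 as described with the results, and the highest peak of a list stood for it in a region. Exact permutation tests used all 84 choices, whose smallest p is 0.0119. Merging and selection were checked on simulated lists with planted regions. For the test, simulated chromosome shares were checked for the direction of planted shifts only. The simulated shares were drawn separately for each list, so they hold no deviation common to lists of the same number. The regions and tests were chosen with earlier results of these data known. Named regions were the 10 highest by mean pileup percentile, the 5 widest, 3 nearest the median, the 5 fullest bins, the closest and most distant pair, and 3 of each kind just outside the rule. With no word on separate cultures, a p reflects the spread between libraries, which may be technical. Alternatives were stricter or equally long lists, wider merging, another presence rule, other bins, a replicate block and left-out lists.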

Additional observations from a re-analysis of the deposited data

How the results depend on the processing

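The number of regions alone in lacZ, 21146, was 12172 with peaks at or above the median fold of their list and 18429 to 21935 under the other rules for lists, merging and presence; without replicates it was 21174 to 39992, highest without replicate 3 of all sets and 38954 without lacZ replicate 3. Median width was 564 bases as the mean length of the 3 lacZ peaks and 568 to 654 without replicates. The summit spread of 46 bases was 43 with the higher folds and 27 to 29 between 2 lists. The median gap was 155879 bases with the higher folds and 46945 to 87946.5 without replicates. The excess variance in bins, 0.0547, was 0.0454 with peaks within 500 bases merged, 0.0458 in bins of 500 kb and 0.0728 in bins of 5 Mb. The chromosome X ratio of 0.564 was 0.892 per merged region of any list. The pileup of 51.3 fragments was 82.7 with the higher folds, 63.3 at equal length and 32 to 52.5 without replicates, and recurrence in the list left out, 82.2%, was 84.5% with the higher folds and 90.2% at equal length; both moved by less than the spread between lacZ lists.

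The 6 chromosomes with a different share became 11 with the higher folds (5 of the 6 among them), 8 at equal length (4 of the 6), 6 by covered bases (5 of the 6) and 0 in each exact permutation test that left out a list or a replicate number, with 0 to 11 chromosomes at an unadjusted p under 0.05; the smallest p these tests allow is 0.0179 to 0.0667. Without a replicate number the smallest exact permutation p is 0.0667, so no call could be made. Leaving out single odd and even lists was added after the data had been seen. With a replicate block 0 were called (12 at an unadjusted p under 0.05). All 12 were at the smallest p of its 27 arrangements, 0.037, at which 12 chromosomes cannot pass the adjustment. All 6 differences kept their direction in the 16 alternatives run. On these 6 every lacZ list lay beyond every probe list, so leaving out lists could not reverse a direction. The replicate block uses the same differences. A direction could change only with the higher folds, at equal length or by covered bases. Chromosome 7, at 0.04, was near 0 with the higher folds (0.0016) and by covered bases (0.015). Same-numbered lists deviated together in 7 of 9 pairs (correlation -0.22 to 0.97), and best with their own number in 12 of 18 comparisons of a list with another set; not every pair was positive, and the labels do not say what a number marks. Of 18 named regions, 11 were still chosen with the higher folds, 15 at equal length and 14 with wider merging; the first by pileup (chromosome 6 from 58776294) and the widest (chromosome 10 from 134634144) were not chosen under either of the first 2. The cause of these shifts was not tested.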
